A study of Mus musculus with 10 samples.

Results

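F-box proteins are the substrate receptors of the SCF ubiquitin ligases, in which Skp1 joins the F-box protein to the scaffold Cul1 and a RING subunit brings in the ubiquitin-conjugating enzyme. Fbxw proteins bind their substrates through WD40 repeats, Fbxl proteins through leucine-rich repeats, and Fbxo proteins through other domains. Ubiquitin-dependent removal of maternal proteins accompanies the replacement of maternal by embryonic gene products in early embryos, and several F-box proteins, such as the anaphase-promoting complex inhibitor encoded by Fbxo5, act in oocyte meiosis. The genes described here are those whose name starts with Fbxw, Fbxl or Fbxo followed by a number, without Fbxo43, and they were 59 of the 21437 genes in the expression table. They were divided by position: 13 Fbxw genes lie side by side on chromosome 9 and are called the oocyte Fbxw cluster below, and the other 46 genes (7 Fbxw, 15 Fbxl and 24 Fbxo) lie elsewhere in the genome. The chromosome 9 annotation places Fbxw13 and Fbxw28 in the same array, but these genes, like Fbxw7, Fbxw8 and Fbxo11, were not analysed here.

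RNA-seq covered mouse MII oocytes, control embryos of the 2-cell and 4-cell stages and Ago2 knockdown (kd) embryos of the same stages, so that there were 5 groups of 2 libraries. All samples are labelled as ICR strain, with the genotype wild type for oocytes and control embryos and Ago2-kd for the rest. The protocol given for every sample, oocytes included, names 7-week-old F1 females mated with F1 males. The study's methods, in contrast, give ICR females of the same age as the source of the oocytes. A strain difference between oocytes and embryos could therefore not be told apart from stage. The knockdown had been made by injecting zygotes with siRNA against Ago2, the Argonaute that cleaves its target RNAs, together with an antibody against the AGO2 protein, so RNA and protein were both targeted and oocytes received no injection. Ago2 itself was not analysed here, so its level could not be used to check the labels. Nothing in the labels says whether the 2 libraries of a group came from separate collections of embryos, and p-values then measure only the spread between these libraries.

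Values are FPKM, in which the fragments of a gene are divided by its exon length and by the mapped fragments of that library, so levels of different genes are given per length. Summed over 10 oocyte marker genes, FPKM lay between 7063 and 8650 in the oocyte libraries, 1389 and 1742 in control 2-cell embryos, and 6.12 and 10.9 in the 4-cell controls. After knockdown this sum lay between 1195 and 1396 at the 2-cell stage and between 24.0 and 41.3 at the 4-cell stage. The sum of 8 markers of 2-cell embryos was 665 and 772 in the 2-cell controls and at most 115 in every oocyte and 4-cell library. Of 12 cumulus and granulosa markers, 2 were in the table, Foxl2 at 0 in every library and Nr5a2 at 34.6 FPKM in 1 control 4-cell library and at most 0.257 in the others. Sperm markers reached at most 1.78 and blood markers at most 7.83 in sum; the part of any of these in the results was not tested. Expression correlated between the 2 libraries of a group with r = 0.75 in 4-cell Ago2 kd embryos and between 0.812 and 0.913 in the other groups, over the genes fitted, which are not independent replicates. Changes in FPKM are relative to the other transcripts of a library, and in these bulk libraries a transcript present in fewer blastomeres and less of it in each cannot be told apart. Gapdh, which nearly all cells express, was at most 0.167 FPKM in every library and at 0 in 1, so a value of 0 says only that a gene is listed at 0.

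The 13 cluster genes span chr9:109139447-109790670 (GRCm38), all on the minus strand, and the 14 protein-coding genes annotated in that interval are all Fbxw genes. Of the 13, 12 are protein-coding and Fbxw23 is annotated as a transcribed unprocessed pseudogene. Their annotated transcripts are close copies, with pairwise identity from 80.51% to 94.49% and a median of 85.05% over 78 pairs. Fbxw16 and Fbxw23 were the closest pair at 94.49%, followed by Fbxw14 and Fbxw22 at 93.1%. How reads that match several of these copies were counted is not stated, so the division of the signal among cluster members is uncertain, while their sum is less exposed to it.

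RefSeq gives a promoter window, 250 bases before to 50 after the start, for 11 of the 13 genes (not for Fbxw22 and Fbxw27). These windows were 56.87% to 96.45% identical in pairs, with a median of 90.94% over 55 pairs, and the low values all involved Fbxw23, whose RefSeq start lies outside the GENCODE gene. A run of 34 bases was shared without a mismatch by 8 of the 11 windows (Fbxw14, Fbxw15, Fbxw18, Fbxw19, Fbxw21, Fbxw24, Fbxw25 and Fbxw26). Read on the strand of the gene, it occurred in 9 of 27025 RefSeq promoter windows, the remaining one being that of Fbxw28 in the same array. The 4 windows below (RefSeq, GRCm38.p6) show how alike these genes are despite very different oocyte levels: Fbxw14 was the highest of the cluster, Fbxw15 was listed at 0 after the oocyte stage, Fbxw25 was at 0 in 9 libraries, and Fbxw20 lacks the intact run. Capitals mark the 34-base run.
Fbxw14 (chr9:109287627-109287926, minus strand): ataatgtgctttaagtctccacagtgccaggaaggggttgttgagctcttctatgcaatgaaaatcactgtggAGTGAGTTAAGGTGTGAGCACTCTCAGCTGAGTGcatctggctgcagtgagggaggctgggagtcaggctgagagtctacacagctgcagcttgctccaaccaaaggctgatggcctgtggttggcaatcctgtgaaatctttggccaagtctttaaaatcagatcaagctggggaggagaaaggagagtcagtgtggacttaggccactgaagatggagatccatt
Fbxw15 (chr9:109568213-109568512, minus strand): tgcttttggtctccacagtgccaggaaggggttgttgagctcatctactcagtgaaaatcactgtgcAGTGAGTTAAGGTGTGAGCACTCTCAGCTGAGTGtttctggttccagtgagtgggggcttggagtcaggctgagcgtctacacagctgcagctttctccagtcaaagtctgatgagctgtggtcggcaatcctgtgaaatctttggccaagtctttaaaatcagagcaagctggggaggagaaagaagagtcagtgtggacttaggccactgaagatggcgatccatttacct
Fbxw25 (chr9:109664603-109664902, minus strand): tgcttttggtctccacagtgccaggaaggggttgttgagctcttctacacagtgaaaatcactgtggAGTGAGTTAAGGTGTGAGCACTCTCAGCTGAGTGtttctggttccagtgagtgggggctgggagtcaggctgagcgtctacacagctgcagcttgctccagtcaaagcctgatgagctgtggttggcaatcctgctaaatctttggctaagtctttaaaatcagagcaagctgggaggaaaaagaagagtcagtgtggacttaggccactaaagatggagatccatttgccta
Fbxw20 (chr9:109234705-109235004, minus strand): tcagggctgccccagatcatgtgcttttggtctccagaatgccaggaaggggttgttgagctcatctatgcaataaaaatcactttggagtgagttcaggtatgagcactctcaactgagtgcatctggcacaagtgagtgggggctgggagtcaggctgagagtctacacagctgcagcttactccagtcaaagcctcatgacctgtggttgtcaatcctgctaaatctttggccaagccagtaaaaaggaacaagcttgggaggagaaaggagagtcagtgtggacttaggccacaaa
The windows of Fbxw15 and Fbxw25 were 95.32% identical over 299 aligned bases, whereas those of Fbxw14 and Fbxw20 were 88.38% identical over 284. The run began 177 bases before the start in Fbxw14, 183 bases before it in Fbxw15 and Fbxw25, and between 207 and 163 bases before it across the 8 genes. It holds CAGCTG, an instance of the E-box CANNTG, which was present in all 11 windows and in 72.1% of all windows. Each motif was searched on both strands. The E-box form CAGGTG was in 0 of the 11 windows and in 20.0% of all. The homeobox motif TAATTG was in 0 of the 11 and in 8.2% of all windows, and its palindromic form TAATTA in 0 of the 11 and in 5.3%. The TATA-box letters TATAAA were likewise in 0 of the 11 and in 14.2% of all windows. CAGGTG and CAGCTG are both instances of CANNTG, so these searches overlap. Most of the 11 windows are close copies of each other, so they are not 11 independent observations. Whether any motif is more or less frequent than in other promoters was not tested. Among the 35 windows of other F-box genes, the general E-box was present in 25, its form CAGGTG in 7, each of the homeobox motifs in 2 and the TATA-box letters in 0.

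The summed FPKM of the oocyte Fbxw cluster was highest in oocytes and lowest at the 4-cell stage. The 13 genes together gave 12615 and 11732 FPKM in the oocyte libraries, which was 2.80% and 2.56% of all FPKM. They gave 623 and 449 FPKM in control 2-cell embryos and 31.1 and 0.212 FPKM in control 4-cell embryos. The 46 other genes together started from 1420 and 1430 FPKM in oocytes, and gave 468 and 523 FPKM in control 2-cell embryos and 818 and 835 FPKM in control 4-cell embryos. The groups did not overlap for either sum at any of these steps. All FPKM of a library came to 450124 and 458874 in oocytes, 196312 and 203645 in 2-cell controls, and 268660 and 241317 in 4-cell controls. As a share of these totals, the 46 other genes were at 0.315% and 0.312%, then 0.238% and 0.257%, then 0.304% and 0.346%. Their oocyte and control 4-cell shares therefore overlapped, although the raw sums did not.

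**Figure D1:**
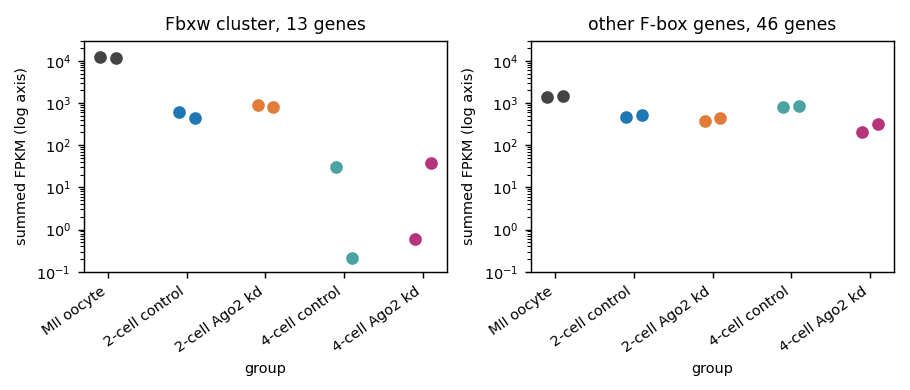
Summed FPKM of the 13 oocyte Fbxw cluster genes (left) and of the 46 other F-box genes (right) in each of the 5 groups, on a log axis; each point is 1 library. The cluster sum lay at 12615 and 11732 in oocytes and at 31.1 and 0.212 in control 4-cell embryos, while the sum of the other genes stayed between 210 and 1430 in all 10 libraries.

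Within the cluster the signal was very uneven. Fbxw14 was listed at 8080 and 7336 FPKM in oocytes, which was 64.1% and 62.5% of the cluster sum. Fbxw24 followed at 2262 and 2121 FPKM (17.9% and 18.1%), and Fbxw18 at 1088 and 1084 FPKM (8.63% and 9.24%). These 3 genes made up most of the cluster signal in both libraries, and their listed oocyte values lay close together. Oocyte replicate values differ from those the study lists elsewhere, while their sums agree. How close or far apart the oocyte libraries were for a gene, here and below, is therefore uncertain. Fbxw15 was listed at 451 and 356 FPKM in oocytes, Fbxw19 at 311 and 194 FPKM, and Fbxw16 at 178 and 164 FPKM. Several weaker members differed between the oocyte libraries. Fbxw20 was at 3.45 in 1 library and 258 FPKM in the other, and Fbxw25 at 24.1 and 0 FPKM. Fbxw22 was listed at 59.9 and 142 FPKM, Fbxw21 at 85.0 and 30.6 FPKM, Fbxw27 at 60.2 and 27.7 FPKM, and Fbxw26 at 11.7 and 17.4 FPKM. Fbxw23, the pseudogene, was at 0.0589 FPKM in 1 oocyte library and at 0 in the other 9 libraries.

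**Figure D2:**
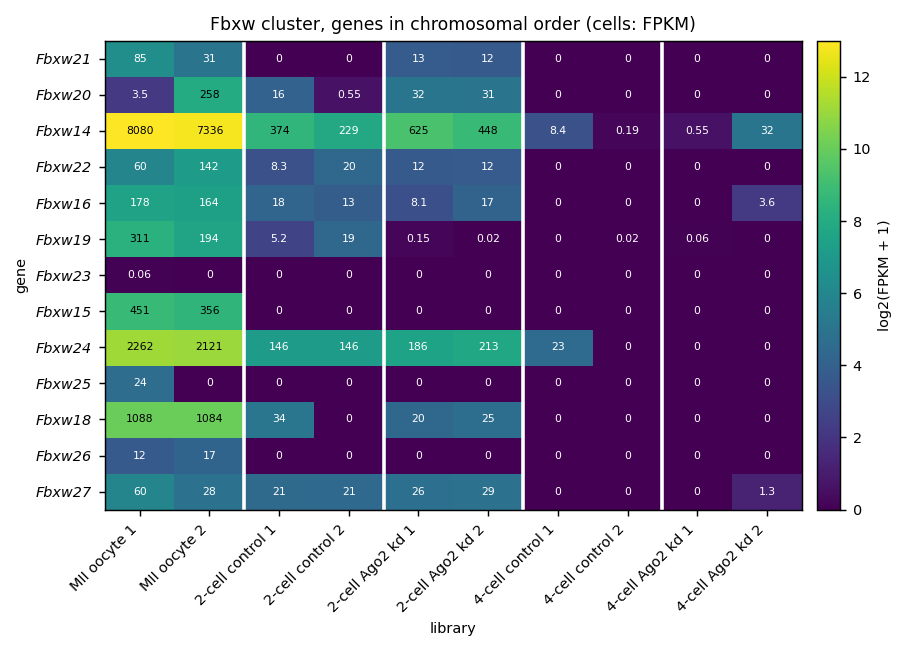
FPKM of the 13 oocyte Fbxw cluster genes (in chromosomal order from top to bottom) in the 10 libraries (columns; white lines separate the groups). Colour gives log2(FPKM + 1) and the printed number the FPKM; Fbxw14 stands at 8080 and 7336 in oocytes, and nearly all 4-cell entries are 0.

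Tested on log2(FPKM + 1) with limma, 11 of the 13 genes passed the filter of at least 1 FPKM in at least 2 libraries, and Fbxw23 and Fbxw25 did not. Most members pass it through the oocyte libraries in which they are high, so the counts below describe them and are no test of the group. From the MII oocyte to the 2-cell control, 7 of the 11 fell (63.6%), none rose, and 14.2% of all 8726 genes fitted fell (6.54% rose). The 7 were Fbxw15, Fbxw16, Fbxw18, Fbxw19, Fbxw21, Fbxw22 and Fbxw26. The median difference of the 11 genes was -3.94 on the log2 scale, and -3.64 over the 8 of them without a group listed at 0, against -0.06 over all genes fitted.

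The members differed in their control 2-cell values. Fbxw15, Fbxw21 and Fbxw26 were listed at 0 in both control 2-cell libraries (limma adjusted p = 6.65e-05, 0.000552 and 0.00018), and no fold was taken against these zeros. Fbxw15 and Fbxw26 were listed at 0 in every embryo library. Only the oocyte libraries brought these 2 genes past the filter, so their calls are no independent test. Their standard errors (0.32 and 0.25) are small because they carry these zeros. Fbxw18 fell from 1088 and 1084 FPKM to 33.7 and 0 FPKM (log2 difference -7.53 ± 1.41 SE, limma adjusted p = 0.0107). Fbxw19 was at 5.25 and 19.4 FPKM in control 2-cell embryos (-4.45 ± 0.59, limma adjusted p = 0.00279). Fbxw16 was at 17.9 and 13.5 FPKM there and fell by 3.38 ± 0.73 (SE) on the log2 scale (limma adjusted p = 0.0179). Fbxw22 was at 8.26 and 20.2 FPKM, a log2 difference of -2.74 ± 0.56 SE with a limma adjusted p of 0.0148. The most abundant members did not pass the threshold at this step although their groups stood far apart. Fbxw14 was listed at 374 and 229 FPKM in control 2-cell embryos (log2 difference -4.71 ± 1.47 SE, limma adjusted p = 0.0656). Fbxw24 was at 146 and 146 FPKM (-3.90 ± 1.26 SE, limma adjusted p = 0.0724). Their standard errors are taken over all 10 libraries and carry the wide spread of both genes among 4-cell libraries. Fbxw27 kept the largest part of its oocyte level, with 21.2 and 20.5 FPKM, or 48.1% and 46.7% of its oocyte mean (log2 difference -0.94 ± 0.54 SE, limma adjusted p = 0.298), a difference that became 0.21 when libraries were scaled to the same FPKM sum. Fbxw20 was at 16.0 and 0.552 FPKM and overlapped with its oocyte values (limma adjusted p = 0.385). This count rested on the oocyte libraries: 2 genes passed without oocyte library 2 and 3 without oocyte library 1 (5.61% and 5.14% of all genes fitted fell in these fits). In them the lone oocyte library is assumed to vary like the other groups. Every call against the oocyte also uses the listed oocyte replicate values, which differ from those the study gives elsewhere.

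Between the 2-cell and 4-cell controls, 6 of the 11 fell (54.5%; 17.5% of all genes fitted fell and 21.1% rose), namely Fbxw14, Fbxw16, Fbxw19, Fbxw22, Fbxw24 and Fbxw27. Fbxw14 was still listed at 8.42 FPKM in 1 control 4-cell library and at 0.188 FPKM in the other (log2 difference -6.46 ± 1.47 SE, limma adjusted p = 0.0134). Fbxw24 was at 22.6 FPKM in the same library and at 0 in the other (-4.92 ± 1.26 SE, limma adjusted p = 0.0206). Fbxw19 was at 0 and 0.0238 FPKM (-3.48 ± 0.59 SE, limma adjusted p = 0.00431). Fbxw16, Fbxw22 and Fbxw27 were listed at 0 in both control 4-cell libraries (limma adjusted p = 0.00538, 0.00233 and 0.0011). Control 4-cell library 1 was therefore the only control library in which a cluster gene was above 1 FPKM at this stage. Without control 4-cell library 2 the call of Fbxw14 was lost, as it was without control 2-cell library 1, and that of Fbxw24 was lost without either control 2-cell library.

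Over both steps, from the MII oocyte to the 4-cell control, 10 of the 11 fell (90.9%), against 26.3% of all genes fitted (22% rose). Fbxw20, whose oocyte libraries were at 3.45 and 258 FPKM, was the exception with a limma adjusted p of 0.0594. This comparison shares its libraries with the 2 comparisons above and is not independent of them. When a maternal transcript is defined as a gene with an oocyte mean above 2 FPKM, 12 of the 13 cluster genes were maternal. Steps were here taken on log2 of the group mean FPKM + 1, not on the mean of logs used in the fit. Of these genes, 4 (Fbxw15, Fbxw21, Fbxw25 and Fbxw26) had decreased by at least 1 log2 unit by the 2-cell stage. They had no further step of that size, and 8 decreased by at least 1 log2 unit at both steps. On this measure none decreased only at the second step, as 6 maternal F-box genes outside the cluster did. Fbxw27 is among the 8, but its first step was -0.94 in the fit and did not pass, so its class depends on the measure. Fbxw20, also among the 8, overlapped between oocyte and control 2-cell libraries. Fbxw25 was at 24.1 and 0 FPKM in oocytes, so its class rests on 1 library. Of the 4825 maternal genes of the whole table, 1101 (22.8%) decreased only at the first step, 909 (18.8%) only at the second and 693 (14.4%) at both.

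**Figure D3:**
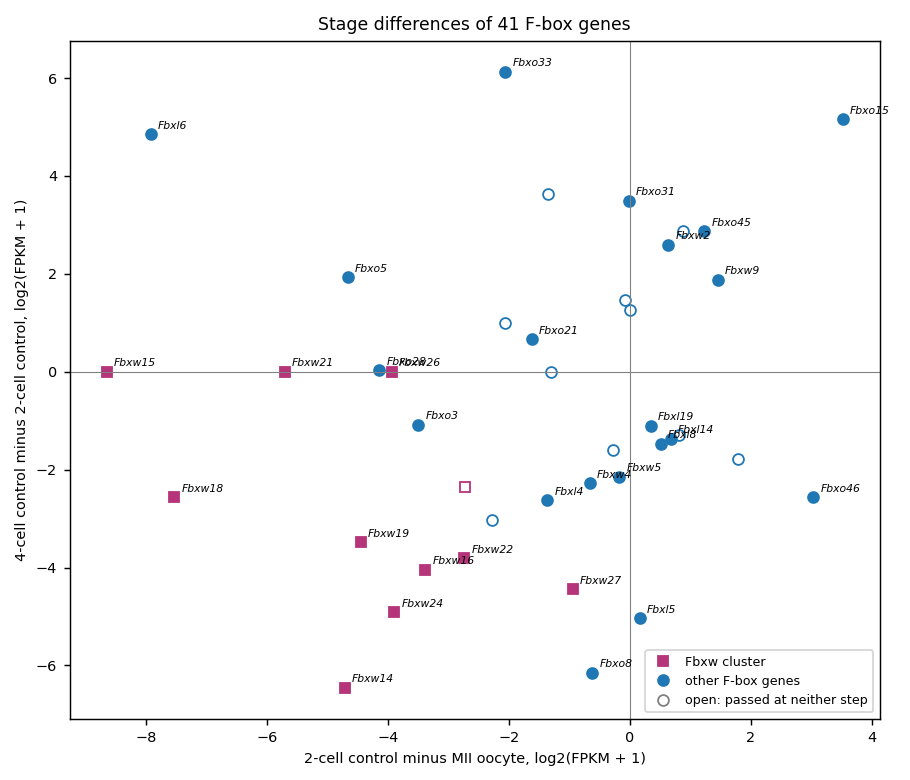
Difference in log2(FPKM + 1) from MII oocyte to control 2-cell embryo (horizontal axis) and from control 2-cell to control 4-cell embryo (vertical axis) for 41 of the 42 F-box genes fitted, with squares for cluster genes and circles for others. Filled symbols passed adjusted p 0.05 at 1 or both steps and are named; no cluster gene lies above the horizontal zero line, whereas the other genes lie in all 4 quadrants.

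Outside the cluster, 31 of the 46 genes passed the filter, and 11 of the remaining 15 were below 1 FPKM in every library. The latter included Fbxo4, Fbxo9, Fbxo22 and Fbxw17, as well as Fbxo7, which is linked to mitochondrial quality control. Fbxw11, which encodes a β-TrCP protein, was at most 1.03 FPKM, in 1 library of 4-cell Ago2 kd embryos. Fbxo30 was at 4.25 FPKM in control 4-cell library 1 and at 0 in the other 9 libraries. The antisense RNA Fbxl12os was at 0.369 FPKM in 1 library and at 0 in the other 9. From oocyte to 2-cell control 5 of the 31 fell (16.1%) and 2 rose (6.5%), near the shares over all genes fitted (14.2% and 6.54%). From 2-cell to 4-cell control 8 fell and 8 rose, 25.8% in each direction, against 17.5% and 21.1%. From oocyte to 4-cell control 12 fell (38.7%) and 5 rose (16.1%), against 26.3% and 22%. The medians of the 31 genes were -0.17, 0.03 and -0.75 for these comparisons, against -0.06, 0.24 and 0 over all genes fitted.

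Outside the cluster, Fbxo5, Fbxl6, Fbxo28, Fbxo3 and Fbxo21 fell by the 2-cell stage. Fbxo5 was listed at 363 and 339 FPKM in oocytes and at 7.82 and 20.8 FPKM in control 2-cell embryos (log2 difference -4.67 ± 0.66 SE, limma adjusted p = 0.00357). It was at 67.7 and 39.7 FPKM in control 4-cell embryos, above its 2-cell values but short of the threshold (1.93 ± 0.66 SE, limma adjusted p = 0.0558). Fbxl6 was at 195 and 299 FPKM in oocytes, at 0 in both control 2-cell libraries (limma adjusted p = 0.000872) and at 32.3 and 23.9 FPKM in control 4-cell embryos (limma adjusted p = 0.00328). Both calls of Fbxl6 rest on the zeros of the 2-cell controls, and its 4-cell values were below those of the oocyte (-3.07 ± 0.77 SE, limma adjusted p = 0.0148). Fbxo28, a nuclear F-box protein, was at 107.9 and 113 FPKM in oocytes, at 4.04 and 6.97 FPKM in control 2-cell embryos and at 5.19 and 5.75 FPKM in control 4-cell embryos, so it fell at the first step (-4.14 ± 0.68 SE, limma adjusted p = 0.00643) and its embryo values overlapped. Fbxo3, which targets the F-box protein Fbxl2, was at 27.0 and 19.3 FPKM in oocytes and at 3.49 and 0 FPKM in control 2-cell embryos (-3.49 ± 0.97 SE, limma adjusted p = 0.045). Fbxo21 was low throughout, at 1.93 and 2.49 FPKM in oocytes and at 0.0871 and 0 FPKM in control 2-cell embryos (-1.62 ± 0.26 SE, limma adjusted p = 0.00579). Only the oocyte libraries brought Fbxo21 past the filter, so its call is no independent test. Fbxo34 was at 35.1 and 42.3 FPKM in oocytes, at 6.23 and 8.31 FPKM in control 2-cell embryos and was listed at 0 in control 4-cell embryos, a fall that passed over both steps (limma adjusted p = 0.00487).

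A separate set did not pass at the first step and fell at the second. Fbxo8, which carries a Sec7 domain, was the highest non-cluster member in oocytes at 526 and 451 FPKM and remained at 334 and 301 FPKM in control 2-cell embryos. It was at 17.6 and 0.0770 FPKM in control 4-cell embryos (log2 difference -6.15 ± 1.77 SE, limma adjusted p = 0.0319). Fbxl5, the iron-sensing receptor for iron regulatory proteins, was at 48.7 and 74.4 FPKM in oocytes and at 51.5 and 88.8 FPKM in control 2-cell embryos. It then fell to 0.973 and 1.20 FPKM (-5.04 ± 0.64 SE, limma adjusted p = 0.00124). Fbxl4, an F-box protein of mitochondria, went from 11.4 and 19.2 FPKM in oocytes through 7.67 and 3.40 FPKM to 0 in both control 4-cell libraries (limma adjusted p = 0.00452 for the second step). Fbxw4 was at 7.20 and 6.18, then 3.05 and 4.84 FPKM, and Fbxw5, which acts in centriole duplication, at 3.27 and 4.86, then 3.31 and 3.56 FPKM, before both were listed at 0 in control 4-cell embryos (limma adjusted p = 0.00454 and 0.0153). Fbxl14, which targets the transcription factor Snail, was at 6.80 and 8.82 FPKM in control 2-cell embryos and at 1.63 and 3.40 FPKM in control 4-cell embryos (-1.36 ± 0.40 SE, limma adjusted p = 0.0347). Fbxl19, a CXXC protein of CpG islands, was at 1.74 and 1.80, then 0 and 0.665 FPKM (-1.10 ± 0.33 SE, limma adjusted p = 0.036). Fbxl8 was at 1.75 and 2.07, then 0 and 0.106 FPKM (-1.47 on the log2 scale, limma adjusted p = 0.0123 with its repeated 2-cell Ago2 kd value, described below, entered once).

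Of the 8 genes that rose from the 2-cell to the 4-cell control, 5 (Fbxo15, Fbxo31, Fbxo45, Fbxw2 and Fbxw9) were below 1 FPKM in both oocyte libraries. Fbxo15, a marker of embryonic stem cells and target gene of Oct4 and Sox2, was at 0 in both oocyte libraries, at 5.75 and 18.6 FPKM in control 2-cell embryos and at 500 and 338 FPKM in control 4-cell embryos (second step 5.16 ± 1.50 SE, limma adjusted p = 0.0331). It was the most abundant F-box transcript of control 4-cell embryos. Fbxo33 followed at 78.9 and 234 FPKM, after 1.34 and 0.629 FPKM in control 2-cell embryos (6.13 ± 1.56 SE, limma adjusted p = 0.0205), with 29.1 and 1.20 FPKM in oocytes. Fbxo31, which targets cyclin D1 after DNA damage, was at 0 in control 2-cell embryos and at 19.2 and 5.31 FPKM in control 4-cell embryos (limma adjusted p = 0.00208). Only these control 4-cell libraries brought it past the filter, so its call is no independent test. Fbxo45, which works with the PHR ligase in neurons, was at 0.687 and 2.29, then 14.3 and 18.4 FPKM (2.87 ± 0.54 SE, limma adjusted p = 0.00652). Fbxw2 was at 1.13 and 1.28, then 15.7 and 9.62 FPKM (2.59 ± 0.65 SE, limma adjusted p = 0.0194). Fbxw9 passed at both steps, from 0 and 0.448 FPKM in oocytes through 1.76 and 2.94 to 9.30 and 13.3 FPKM (limma adjusted p = 0.0418 and 0.00987). Fbxo46 rose at the first step only, from 0 and 1.17 to 11.2 and 10.9 FPKM (3.04 ± 0.86 SE, limma adjusted p = 0.0483), and was at 0 and 3.16 FPKM in control 4-cell embryos.

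The members below, each with 1 deviating library, gave no call. Such a library did not always prevent a call, as with Fbxo8 at 17.6 and 0.0770 FPKM in control 4-cell embryos. Fbxl20 was at 1.72 and 63.1 FPKM in control 4-cell embryos and at 6.43 and 0 FPKM in oocytes, and Fbxl18 was at 0.0452 and 6.95 FPKM in control 4-cell embryos. Fbxo18, annotated as the DNA helicase Fbh1, was at 74.7 FPKM in 2-cell Ago2 kd library 1 and at most 5.26 FPKM in the other 9 libraries. Fbxl12 was at 17.3 and 24.2 FPKM in oocytes, 3.78 and 4.58 FPKM in control 2-cell embryos, and 3.71 and 21.7 FPKM in control 4-cell embryos. Its exons overlap those of Ubl5 on the opposite strand, and the counting is not stated to use strand. Fbxl2, Fbxl5, Fbxl15, Fbxl22, Fbxo3, Fbxo7, Fbxo22, Fbxo34, Fbxo46, Fbxw4, Fbxw9 and the antisense Fbxl12os likewise overlap a gene on the opposite strand, as Fbxw15 and Fbxw16 do in the cluster, and Fbxl20 and Fbxw10 overlap a gene on the same strand.

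**Figure D4:**
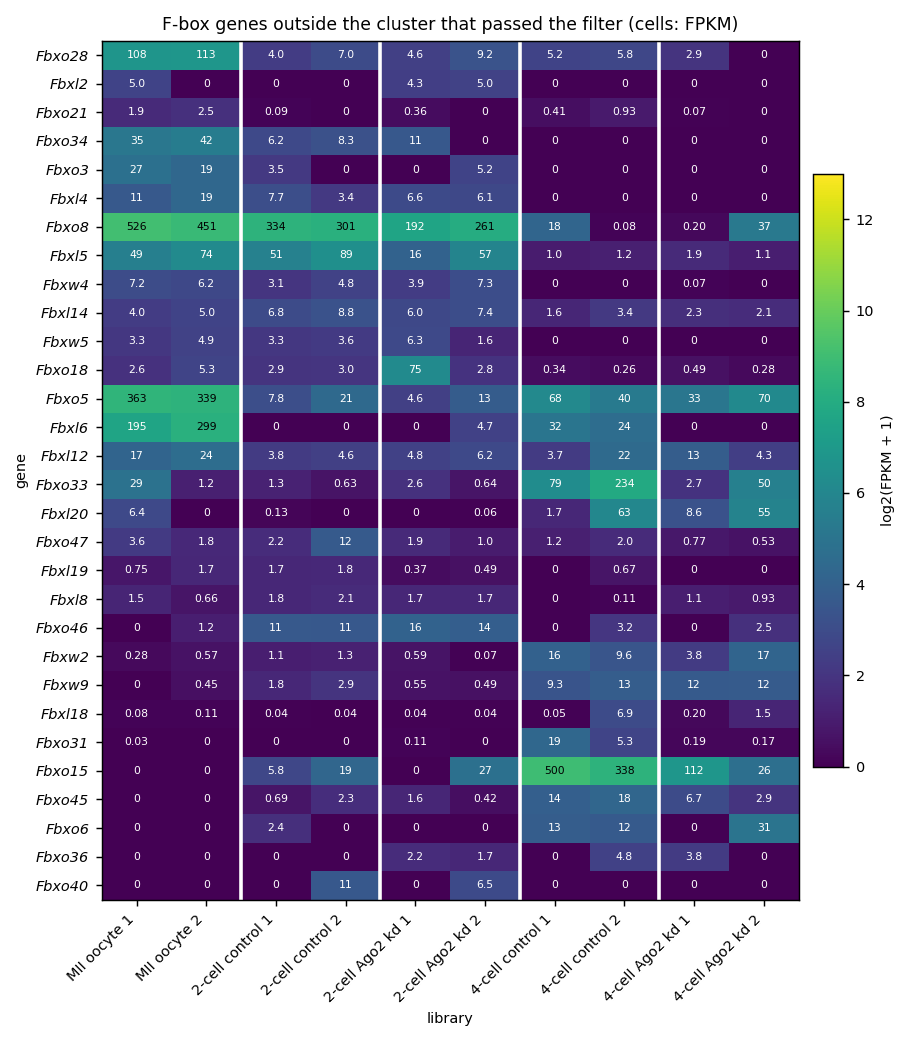
FPKM of 30 of the 31 F-box genes outside the cluster that passed the filter (rows) in the 10 libraries (columns; white lines separate the groups). Colour gives log2(FPKM + 1) and the printed number the FPKM. From the top, maternal genes are ordered by a decrease at the first step only, at both steps and at the second only. Maternal genes in none of these classes, Fbxo5 and Fbxl6 among them, come next. At the bottom are genes with an oocyte mean of 2 FPKM or less, such as Fbxo15 at 500 and 338 in control 4-cell embryos.

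The counts of these genes depended on single libraries, and Fbxo3 and Fbxo46 (first step) and Fbxo8 and Fbxo15 (second step) passed in 5, 9, 8 and 8 of 20 alternatives. Without control 2-cell library 1, without control 2-cell library 2 and without control 4-cell library 1, 5, 4 and 5 genes fell at the second step in place of 8, and 3 rose without control 2-cell library 1 and 4 without control 4-cell library 2. Scaling every library to the same FPKM sum moved the median of all genes by 0.45 from oocyte to 2-cell control, by -0.17 from 2-cell to 4-cell control and by 0.46 from oocyte to 4-cell control. The share of called genes that were higher moved from 31.5% to 64.1% at the first step (47.3% after scaling to the same median and 47.5% after quantile normalization) and from 45.5% to 56% over both steps, and F-box genes called at the first step went from 12 lower and 2 higher to 8 lower and 1 higher. No called difference of an F-box gene changed direction under the 3 scalings. Among differences that did not pass, those of Fbxo8, Fbxo18, Fbxw4, Fbxw5 and Fbxw27 at the first step turned from lower to higher with sum scaling (Fbxo8 from -0.62 to 0.56), and the second step of Fbxo28 turned from 0.03 to -0.30.

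Ago2 knockdown embryos were compared with the controls of the same stage, which addresses whether the clearance or activation of these genes differs when Ago2 is reduced. At the 2-cell stage the cluster as a whole was at 922 and 787 FPKM in Ago2 kd embryos, above the 623 and 449 FPKM of the controls. The sum of the 8 markers of 2-cell embryos was lower, at 371 and 518 FPKM in 2-cell Ago2 kd embryos against 665 and 772 FPKM. Of these markers, Tcstv3, Usp17la and Usp17lb were lower in both knockdown libraries, and Tcstv1 and Usp17lc were higher in both. Tcstv3 carried the same value, 134 FPKM, in both knockdown libraries, against 273 and 306 FPKM in controls. The oocyte marker sum lay between 1195 and 1396 FPKM after knockdown and between 1389 and 1742 FPKM in controls, so these ranges overlapped. The part of either sum in these values was not tested. Fbxw14 was at 625 and 448 FPKM in Ago2 kd embryos against 374 and 229 FPKM in controls (log2 difference 0.85 ± 1.47 SE, limma adjusted p = 1). Fbxw24 was at 186 and 213 FPKM against 146 and 146 FPKM (0.44 ± 1.26 SE, limma adjusted p = 1). The values of both genes were higher in both knockdown libraries, but the differences were smaller than their standard errors. Of the 42 F-box genes fitted, 1 passed adjusted p 0.05 (2.38%, against 0.55% of all genes fitted) and 5 had an unadjusted p under 0.05 (11.9%, against 5.96%).

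The gene that passed was Fbxw21, at 12.6 and 12.004 FPKM in 2-cell Ago2 kd embryos and at 0 in both control 2-cell libraries (limma adjusted p = 0.038), after 85.0 and 30.6 FPKM in oocytes. The call was kept without either oocyte library and lost in the other 8 fits that left out 1 library, with adjusted p from 0.00633 to 0.303 over all alternatives. Fbxw19 moved the other way, from 5.25 and 19.4 FPKM in controls to 0.145 and 0.0230 FPKM in Ago2 kd embryos (log2 difference -3.38 ± 0.59 SE), and did not pass (limma adjusted p = 0.0894). Both belong to the array of close copies described above, for which the handling of shared reads is not stated. Fbxw20 was at 32.2 and 31.1 FPKM against 16.0 and 0.552 FPKM in controls (limma adjusted p = 1), and Fbxw18 at 20.3 and 24.9 FPKM against 33.7 and 0 FPKM (limma adjusted p = 1). Fbxw15 and Fbxw26 were listed at 0 in the knockdown as in the control 2-cell libraries. Fbxl2 was at 4.34 and 5.01 FPKM in Ago2 kd embryos and at 0 in the controls (limma adjusted p = 0.422). Fbxw9 was at 0.554 and 0.491 FPKM against 1.76 and 2.94 FPKM (limma adjusted p = 0.652), and Fbxl19 at 0.372 and 0.495 FPKM against 1.74 and 1.80 FPKM (limma adjusted p = 0.633). Of the other abundant members, Fbxo8 was at 192 and 261 FPKM in Ago2 kd embryos and at 334 and 301 FPKM in controls (limma adjusted p = 1), and Fbxl5 at 15.8 and 57.5 FPKM with controls at 51.5 and 88.8 FPKM (limma adjusted p = 1). Fbxl8 carried the same value, 1.73 FPKM, in both 2-cell Ago2 kd libraries, as did 193 genes of the table in all, so no test of it is given at this stage. The fit over all genes entered both values, which understates the spread of Fbxl8 in every comparison, and the counts of F-box genes called include it.

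At the 4-cell stage the F-box genes outside the cluster were lower in sum after knockdown, 210 and 318 FPKM against 818 and 835 FPKM in the controls. The 2-cell marker sum was 53.0 and 53.3 FPKM in 4-cell Ago2 kd embryos against 22.8 and 26.3 FPKM in controls, and its part was not tested. Fbxo15 and Fbxo33 made up most of the gap between the F-box sums. Fbxo15 was at 112 and 26.0 FPKM in Ago2 kd embryos against 500 and 338 FPKM (log2 difference -2.90 ± 1.50 SE, limma adjusted p = 0.437), and Fbxo33 at 2.72 and 49.5 FPKM against 78.9 and 234 FPKM (-3.32 ± 1.56 SE, limma adjusted p = 0.385). Their groups did not overlap, but the differences did not pass the threshold. Of the 42 genes, 2 passed (4.76%, against 4% of all genes fitted) and 7 had an unadjusted p under 0.05 (16.7%, against 15.4%), which is near the background in both counts.

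Both genes that passed were lower in the knockdown. Fbxo31 was at 0.185 and 0.165 FPKM in 4-cell Ago2 kd embryos against 19.2 and 5.31 FPKM in controls (log2 difference -3.26 ± 0.50 SE, limma adjusted p = 0.0159), close to its 0.111 and 0 FPKM in 2-cell Ago2 kd embryos. It passed the filter only through these control 4-cell libraries, in which it was high, so its call describes the values and is no independent test. Fbxl6 was at 0 in both 4-cell Ago2 kd libraries against 32.3 and 23.9 FPKM in controls (limma adjusted p = 0.019). Both calls were lost without 4-cell Ago2 kd library 1, and that of Fbxl6 also without either control 4-cell library, whereas Fbxo31 failed the filter in those fits and gave no value. Fbxo45 was at 6.73 and 2.92 FPKM against 14.3 and 18.4 FPKM (-1.65 ± 0.54 SE, limma adjusted p = 0.194). Fbxo31, Fbxl6, Fbxo45, Fbxo15 and Fbxo33 were all among the 8 that rose from the 2-cell to the 4-cell control, and since that comparison shares the control 4-cell libraries with this one, high values in those libraries enter both. Also among the 8, Fbxw2 (3.78 and 17.0 FPKM after knockdown, and 15.7 and 9.62 FPKM without it) and Fbxw9 (11.8 and 12.2 FPKM, and 9.30 and 13.3 FPKM), overlapped between knockdown and control. Fbxo28 was at 2.93 and 0 FPKM against 5.19 and 5.75 FPKM (limma adjusted p = 0.299), Fbxo21 at 0.0711 and 0 FPKM against 0.407 and 0.935 FPKM (limma adjusted p = 0.278), and Fbxl8 at 1.11 and 0.929 FPKM against 0 and 0.106 FPKM (limma adjusted p = 0.206 with its repeated value entered once). Fbxo5, with 33.3 and 69.9 FPKM, and Fbxl20, with 8.63 and 55.1 FPKM, were after Fbxo15 the most abundant members of 4-cell Ago2 kd embryos by their mean, and both overlapped with the controls. The cluster showed no call at this stage: its sum was 0.609 and 37.0 FPKM in Ago2 kd and 31.1 and 0.212 FPKM in control embryos and 1 library of each group held nearly all of it.

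**Figure D5:**
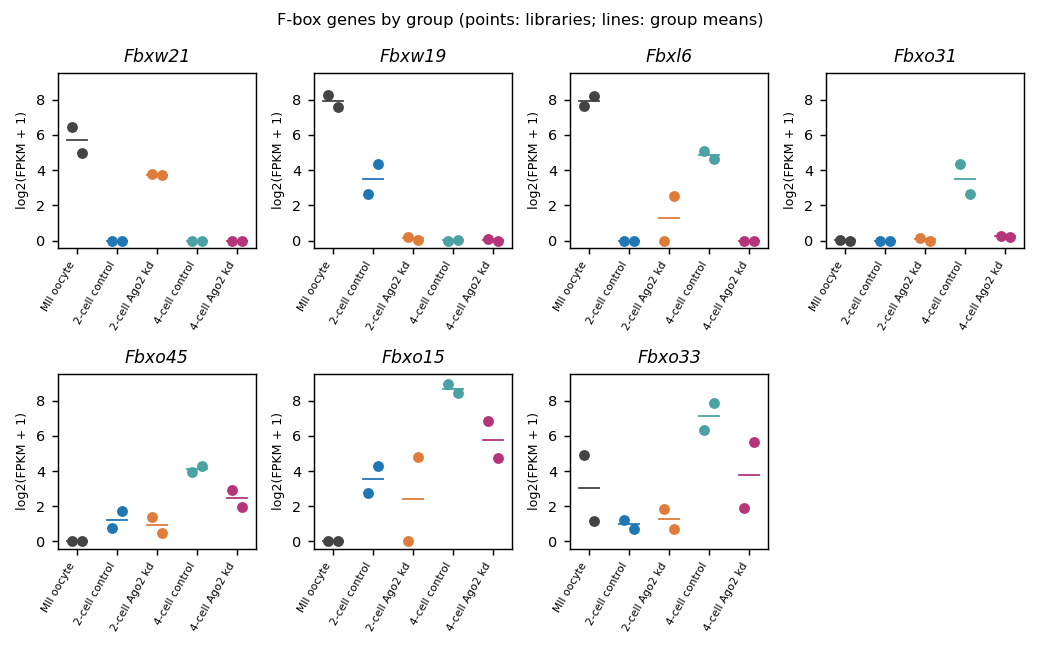
log2(FPKM + 1) of 7 F-box genes in the 5 groups; points are libraries and lines the mean of the 2 libraries of a group. Fbxw21 lies above the control at the 2-cell stage and Fbxw19 below it, and Fbxl6, Fbxo31, Fbxo45, Fbxo15 and Fbxo33 lie below the control at the 4-cell stage.

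The difference between the knockdown effects of the 2 stages was tested as an interaction. Of the 42 genes, 1 passed (2.38%, against 2.28% of all genes fitted) and 6 had an unadjusted p under 0.05 (14.3%, against 13.4%), Fbxl8 with its repeated value among them. The gene was Fbxl6, with a difference of -6.10 ± 1.09 SE (limma adjusted p = 0.041), which was listed at 0 in control 2-cell and knockdown 4-cell libraries. Fbxw21 (limma adjusted p = 0.0515), Fbxo31 (0.0744) and Fbxw19 (0.114) did not pass, so their knockdown effects were not shown to differ between stages.

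The partners of F-box proteins were described in the same way. Of 34 genes listed as SCF subunits, neddylation enzymes, COP9 signalosome subunits and ubiquitin-conjugating enzymes, 30 were in the table and 27 were fitted. Of these, 6 fell and 1 rose from oocyte to 2-cell control (22.2% and 3.7%, against 14.2% and 6.54% of all genes fitted). From 2-cell to 4-cell control 4 fell and 4 rose (14.8% each, against 17.5% and 21.1%), and 10 fell and 5 rose over both steps (37.0% and 18.5%, against 26.3% and 22%). Skp1a, the adaptor that binds the F-box, was at 724 and 794 FPKM in oocytes, 816 and 746 FPKM in control 2-cell embryos and 201 and 131 FPKM in control 4-cell embryos (second step -2.26 ± 0.38 SE, limma adjusted p = 0.00436). The scaffold Cul1 was between 17.2 and 111 FPKM in the 6 oocyte and control libraries and passed at no step. Cand1, which exchanges F-box proteins on Cul1, was at most 0.406 FPKM in oocytes and control 2-cell embryos and at 96.1 and 135 FPKM in control 4-cell embryos (6.57 ± 1.35 SE, limma adjusted p = 0.00904). Uba3 and Nae1, which form the NEDD8-activating enzyme, were at 26.7 and 50.9 and at 252 and 182 FPKM in oocytes, and at 10.1 and 0.202 and at 0.0865 and 0.0886 FPKM in control 4-cell embryos. After knockdown none of the 27 passed at the 2-cell stage, and 1 was lower at the 4-cell stage (3.7%, against 2.8% of all genes fitted), which is near the background. This was Dcun1d5, a co-factor of neddylation, at 0 in both 4-cell Ago2 kd libraries against 74.3 and 90.1 FPKM in controls (limma adjusted p = 0.00765). Of 6 F-box genes that carry another name, 5 were in the table and 4 were fitted, of which 1 rose and none fell at the second step (21.1% of all genes fitted rose and 17.5% fell). This was Skp2, which targets p27, from 3.13 and 4.21 FPKM in control 2-cell to 47.7 and 29.6 FPKM in control 4-cell embryos (3.06 ± 0.44 SE, limma adjusted p = 0.00216). In 4-cell Ago2 kd embryos Skp2 was at 7.15 and 8.89 FPKM, a difference from the controls that did not pass (-2.10 ± 0.44 SE, limma adjusted p = 0.0514).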

How the data were processed

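RNA-seq libraries of MII oocytes, control 2-cell and 4-cell embryos and Ago2 knockdown embryos of both stages (2 per group, grouped by their labels) were analysed from the FPKM that the authors deposited, 1 value per gene name. Per the methods and processing notes, reads were checked with FastQC, trimmed with Trim Galore, aligned to GRCm38.p6 with HISAT2 2.1.0 and counted with HTSeq-count, and FPKM were computed with StringTie; CASAVA 1.4 is also named. How transcripts were reduced to 1 row per gene name and how reads shared by close copies were handled is not given in the sources used here. Without counts, depth and counting error are unknown. Oocyte replicate values differ from those the study lists elsewhere while their sums agree, so 1 alternative used the oocyte mean as 1 sample.

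FPKM were analysed without further scaling as log2(FPKM + 1), which understates changes of low genes, with limma 3.58.1 in R 4.3.3: 1 mean per group over 10 libraries (5 residual degrees of freedom), variances moderated with a trend, a filter of 1 FPKM or more in 2 or more libraries (8726 genes), two-sided tests, Benjamini-Hochberg threshold 0.05. The fit was tested on simulated data first. Differences are given ± SE. Positions came from GENCODE M21, promoter windows from RefSeq (both GRCm38), and alignments from Biopython 1.88. Members and gene lists were chosen with earlier results of these data known. Genes named were every cluster gene, those past the threshold per comparison with groups apart, those at unadjusted p under 0.05 where a knockdown comparison had fewer than 5 calls, the 5 highest per group and a fixed list of well-known F-box genes; 1 member is counted but not reported here by name. The design held no replicate block because the study gives no covariate. In a check made after the fit, same-numbered libraries did not deviate together. Alternatives varied the pseudocount, filter, scaling, model and libraries.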

Additional observations from a re-analysis of the deposited data

Results flagged for a closer look

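The effect of Ago2 knockdown on Fbxl6 differed between the 4-cell and the 2-cell stage by -6.1 on the log2(FPKM + 1) scale (limma interaction, adjusted p = 0.041). Fbxl6 was listed at 0 in both 4-cell Ago2 kd libraries and at 32.3 and 23.9 FPKM in the control 4-cell libraries, whereas at the 2-cell stage it was at 0 in the controls and at 0 and 4.67 FPKM in Ago2 kd embryos. The difference passed in 4 of 20 alternatives, with adjusted p between 0.0146 and 0.124.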

How the results depend on the processing

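Of the 81 gene results recomputed, none reversed its direction in any alternative that gave it a value. The cluster count from oocyte to 2-cell control (7) ranged from 2 to 8 with 1 library left out. Of the other F-box genes, the 5 lower at that step became 8 at unadjusted p, 3 with a pseudocount of 0.1 and 3 with sum scaling (2 to 6 with 1 library left out), and the 2 higher became 1 without the filter, 1 with sum scaling, 1 with quantile normalization, 0 with only the compared groups and 0 with the oocyte mean as 1 sample, an alternative chosen after seeing the data (0 to 2). At the second step the 8 lower ranged from 4 to 9 with 1 library left out, and the 8 higher became 5 with a pseudocount of 0.1 and 5 without the filter (3 to 9).

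For Ago2 kd at the 2-cell stage, the 1 call became 5 at unadjusted p, 2 with a pseudocount of 0.1, 2 with sum scaling, 0 with only the compared groups and 2 with the oocyte mean as 1 sample (0 to 2 with 1 library left out). At the 4-cell stage the 2 calls became 7, 0 with only the compared groups and 1 with the oocyte mean (0 to 3). The 1 interaction call became 6 at unadjusted p, 3 with a pseudocount of 0.1, 3 with sum scaling, 0 without the filter, 2 with only the compared groups, 2 without the variance trend and 2 with the oocyte mean (0 to 2). The cause was not tested. The replicate numbers did not pair the libraries (correlations of same-numbered deviations from -0.093 to 0.092). With the replicate block the 2-cell knockdown count became 0 and the interaction count 0, and 76 of 81 gene results kept their side of the threshold, the exceptions being Fbxo3 at the first step, Fbxo8 at the second, Fbxl8 over both, Fbxw21 after knockdown and Fbxl6 in the interaction. Leaving out genes with identical 2-cell Ago2 kd values, also chosen after seeing the data, lost the calls of Fbxl8, which is such a gene, and of no other F-box gene (other genes lower 7 at the second step and 11 over both). With 2 libraries a group and unknown depth, low genes are the least certain.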

Other observations

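Among the genes beside the array, Shisa5, on the plus strand upstream of Fbxw21 in coordinate order, was listed at 36.6 and 36.9 FPKM in oocytes, 21.7 and 25.4 FPKM in control 2-cell embryos and 0 and 0.169 FPKM in control 4-cell embryos. Plxnb1, which lies between Shisa5 and the array, was at 0 in 9 of the 10 libraries and at 0.196 FPKM in 1. Ccnf, which encodes the F-box protein cyclin F, was at 67.2 FPKM in control 4-cell library 2 and at 0 in the other 9 libraries. Btrc, the β-TrCP gene related to Fbxw11, was at 6.13 FPKM in control 4-cell library 1 and 9.16 FPKM in 4-cell Ago2 kd library 2 and at 0 in the other 8 libraries.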
